A study of Mus musculus with 9 samples.

Results

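The genes described here are 38 genes of the NF-kappaB pathway and its targets, of which 32 were read on the arrays and are analysed, out of 12393 genes in all. They were listed by name, and each gene is represented by the probe set with the highest mean over the 9 arrays. Nfkb1, Nfkbid, Chuk, Malt1, Traf3 and Ripk1 are not analysed here. No filter on low values was applied, so the same 32 genes enter every comparison. The measured genes fall into 8 output targets (secreted or surface products and Irf1), 12 feedback targets (pathway genes that NF-kappaB is known to induce) and 12 components (pathway genes not classed as targets).

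The arrays measured RNA of CD4+CD25+ regulatory T (Treg) cells of C57Bl/6 mice, obtained with magnets. There were 3 arrays of independent samples in each of 3 groups. One group was fl-CBP/Foxp3cre (CBP-deleted), one fl-p300/Foxp3cre (p300-deleted) and one Foxp3cre (control), whose samples are titled WT. CBP and p300 are related acetyltransferases of histones and other proteins, and the study asked whether Treg cells need each of them. The age of the mice is not given. Cre is driven from Foxp3, so deletion is limited to cells that have expressed Foxp3, while CD4+CD25+ cells can include activated T cells that have not. The values are log2 signals, and the number of arrays limits their precision.

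NF-kappaB is a family of paired transcription factors made of Rel proteins. IkappaB proteins hold them in the cytoplasm until a kinase complex, started by TNF receptors or by the T cell receptor through Malt1 and Bcl10, marks the inhibitors for destruction. In the nucleus the factors recruit CBP and p300 and switch on cytokines, adhesion molecules and their own inhibitors. In the Treg lineage the Rel proteins are known to be needed for development and for the activated state.

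Of the genes that define the samples, Foxp3 read log2 9.48 to 9.75 in the 3 controls, 2.73 to 2.97 in CBP-deleted and 2.58 to 3.19 in p300-deleted arrays. All 6 deleted arrays thus read near the bottom of the scale for the lineage marker, and none of the controls did. Crebbp, which encodes CBP, was -0.33 in CBP-deleted against control cells (limma adjusted p = 0.123), and the part of each transcript that is read is not given, so neither probe set checks the deletion. Il2ra, which encodes CD25, read 8.77 to 9.33 over the 9 arrays. Of 10 measured CD4 T and Treg cell markers, Foxp3 and Il2ra among them, 4 were below and 6 above control in CBP-deleted cells. In p300-deleted cells 1 was below and 9 were above. The Foxp3 split follows the deleted and control groups, so comparisons with control cannot separate it from the deletions. What the Foxp3 reading reflects was not tested. The array medians lay between 5.49 and 5.59. The mean of the 18S ribosomal RNA control probe sets was 7.39 to 8.0 in CBP-deleted, 7.88 to 9.62 in p300-deleted and 5.82 to 8.88 in control arrays.

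In CBP-deleted cells 13 of the NF-kappaB genes had lower signals than in controls. Of the 32 genes 13 fell and none rose, where limma called 4.93% of all genes, 2.79% lower and 2.14% higher (Benjamini-Hochberg adjusted over all genes). An unadjusted p under 0.05 was reached by 18 of the 32, beside 20.4% of all genes. The CBP-deleted arrays lay wholly below the control arrays for 20 of the 32 and wholly above for none, beside 14.5% and 10% of all genes. The sign was negative for 27 of the 32, beside 56.6% of all genes. The median log2 fold change was -0.42, beside -0.03 over all genes. Among the output targets 3 of 8 fell (Tnf, Ltb and Icam1), among the feedback targets 6 of 12 (Traf1, Nfkbie, Bcl3, Relb, Tnip1 and Nfkb2), and among the components 4 of 12 (Tnfrsf1b, Tnfrsf1a, Traf2 and Rela).

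p300-deleted cells, set against the same 3 controls, gave 3 calls. Relb and Tnfrsf1b fell and Lta rose. Of all genes 4.06% were called, 2.04% lower and 2.02% higher. An unadjusted p under 0.05 was reached by 9 of the 32, beside 18.6% of all genes, and the sign was negative for 16, beside 55.1%. The median log2 fold change of the 32 genes was -0.01, beside -0.02 over all genes. Arrays did not overlap for 5 genes on the lower and 2 on the higher side, beside 11.5% and 8.76% of all genes. This comparison and that of CBP-deleted cells share their controls, so they are not independent.

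The direct comparison of CBP-deleted with p300-deleted cells takes its difference from those 6 arrays, without the controls. Lta, Traf1, Tnf, Ltb, Irf1, Bcl3 and Nfkbia were lower in CBP-deleted cells, 7 of the 32. Of all genes 5.2% were called, 2.01% lower and 3.2% higher in CBP-deleted cells. Arrays were wholly lower for 16 of the 32 and wholly higher for none, beside 14.4% and 15.8% of all genes, and 15 had an unadjusted p under 0.05, beside 18.3%. All 7 are targets: 4 of the 8 output targets and 3 of the 12 feedback targets. None of the 12 components was called in limma, where 2 had an unadjusted p under 0.05. That depends on the fit: with only the arrays of the 2 groups, the component Rela was called as well (-0.30, adjusted p = 0.0221). The sign was negative for all 20 targets and for 8 of the 12 components, beside 54.1% of all genes.

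**Figure D1:**
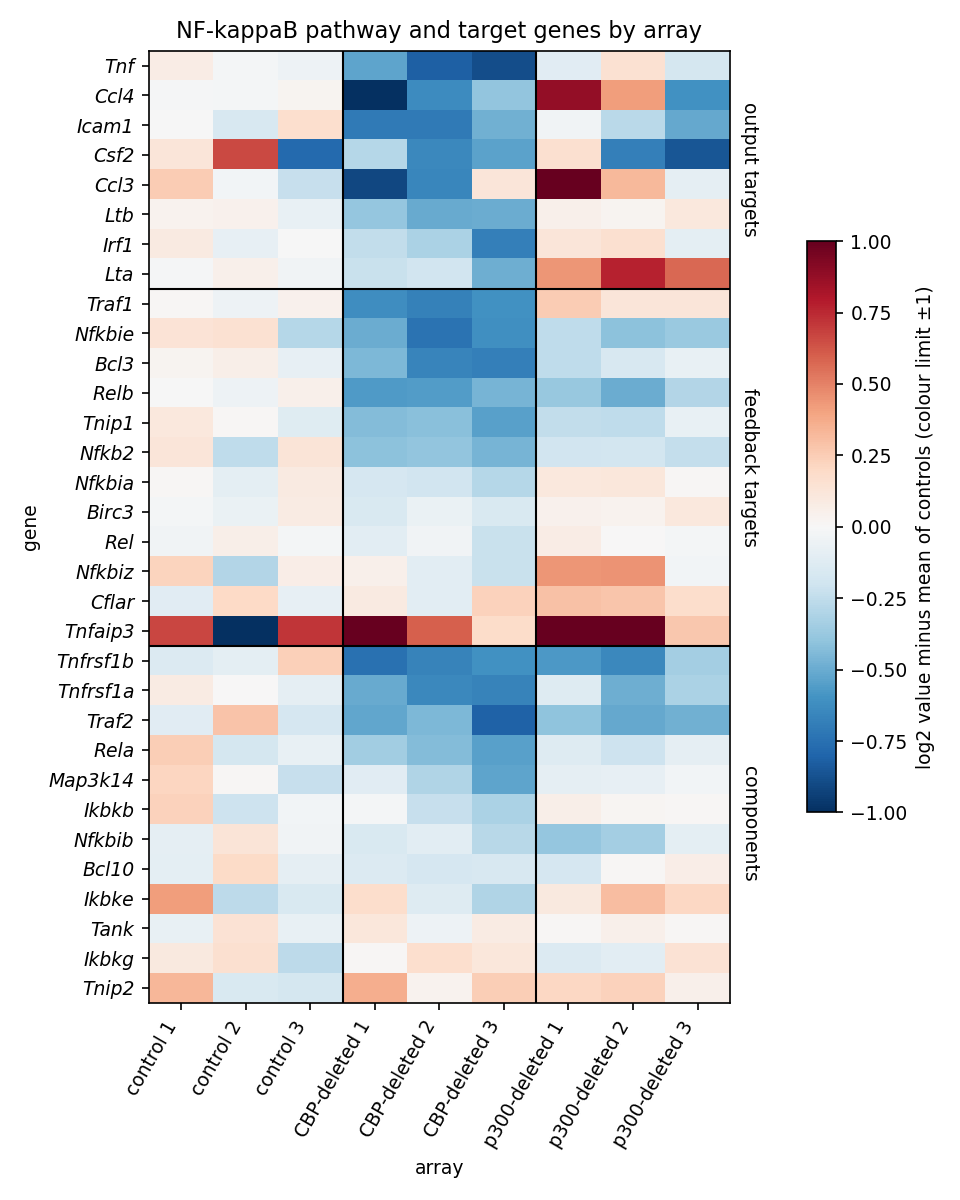
Log2 value of each of the 32 genes on each array minus its mean in controls, as colour (blue lower, red higher, limit at 1), with arrays in columns and genes in rows grouped as output targets, feedback targets and components. The CBP-deleted columns are blue in most of the 32 genes, 27 of which have a mean below the control, and the p300-deleted columns are below every control in 5 genes, Relb, Tnfrsf1b, Tnfrsf1a, Traf2 and Nfkbib.

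Targets and components were then compared as classes by counts, medians and means, with no test. Against control, the median log2 fold change in CBP-deleted cells was -0.48 for output targets, -0.32 for feedback targets and -0.18 for components. The median of all 20 targets minus that of the 12 components was -0.28, and the difference of their means was -0.13. Without control replicate 1 the difference of medians was -0.19. In p300-deleted cells the medians were 0.06, 0.04 and -0.05 in the same order. Between the deletions they were -0.61, -0.27 and -0.14, and the median of the targets minus that of the components was -0.23. Without p300-deleted replicate 1 this was -0.12, without replicate 2 of that group -0.15. On each array the mean of the output targets, taken as the log2 distance from the control mean, was -0.56 to -0.48 in CBP-deleted arrays, -0.21 to 0.31 in p300-deleted arrays and -0.12 to 0.07 in controls. For feedback targets the ranges were -0.32 to -0.18, -0.04 to 0.14 and -0.14 to 0.09, and for components -0.31 to -0.16, -0.15 to -0.07 and -0.10 to 0.09. In all 3 classes the CBP-deleted arrays lay below the 6 others, by little for feedback targets and components. The highest CBP-deleted array was at -0.185 for feedback targets, beside -0.144 in control replicate 2. For components it was at -0.156, beside -0.147 in p300-deleted replicate 2.

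**Figure D2:**
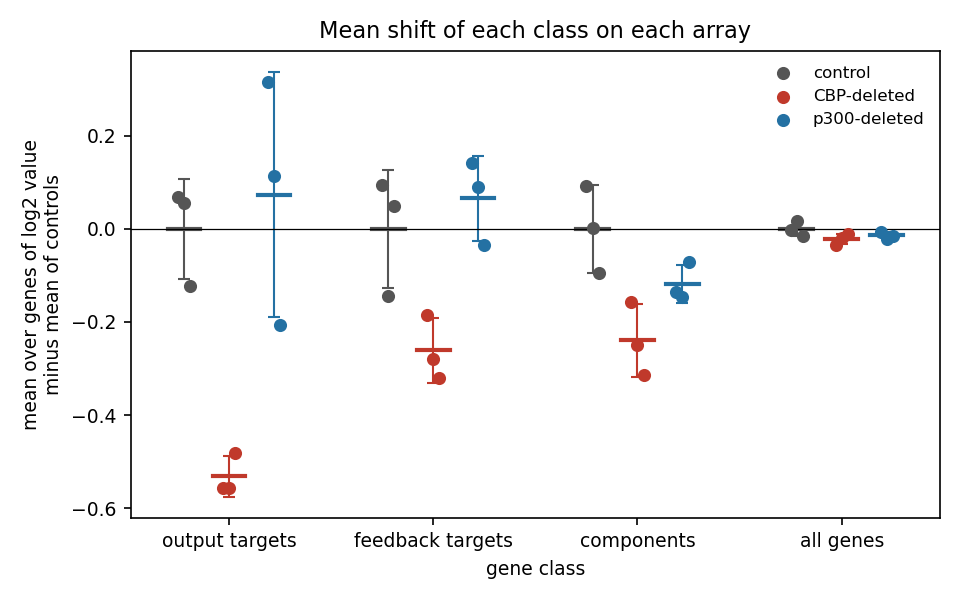
Mean over the genes of a class of the log2 value minus the control mean, for each array (points), with the group mean (bar) and SD over 3 arrays (error bar). In each class the CBP-deleted arrays sit below every control and p300-deleted array, for output targets at -0.56 to -0.48. The gap is narrow for feedback targets and components. The mean over all genes stays near 0 in every group.

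Tnf, Ltb and Lta are the output targets whose difference between the deletions was called under every alternative run. These encode tumour necrosis factor and the lymphotoxins, cytokines that act through TNF receptor family members and organise lymphoid tissue. They are neighbours on chromosome 17, in the order Ltb, Tnf, Lta by RefSeq.

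Tnf read 8.03, 7.93 and 7.90 in controls 1 to 3, 7.43, 7.14 and 7.07 in CBP-deleted and 7.84, 8.11 and 7.78 in p300-deleted arrays. All CBP-deleted arrays were below the other 6, which overlapped each other. Tnf fell 1.67-fold against control (log2 -0.74, SE 0.12, limma adjusted p = 0.00898) and was -0.70 against p300-deleted cells (adjusted p = 0.00706). The call against control was lost in 2 of 21 alternatives, without CBP-deleted replicate 2 or 3 (adjusted p up to 0.0514).

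Ltb read 12.57, 12.57 and 12.45 in controls, 12.14, 12.02 and 12.03 in CBP-deleted and 12.58, 12.56 and 12.63 in p300-deleted arrays. The groups were separated in the same way, with a narrow spread. Ltb fell 1.38-fold against control (log2 -0.46, SE 0.07, limma adjusted p = 0.00452) and was -0.52 against p300-deleted cells (adjusted p = 0.00169).

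Lta read 8.33, 8.40 and 8.31 in controls, 8.13, 8.16 and 7.86 in CBP-deleted and 8.79, 9.12 and 8.93 in p300-deleted arrays. Here the 3 groups did not overlap at all, with CBP-deleted lowest and p300-deleted highest. Lta rose 1.51-fold in p300-deleted cells against control (log2 0.60, SE 0.11, limma adjusted p = 0.0148). Against control it was -0.30 in CBP-deleted cells (adjusted p = 0.144), and the deletions differed by 1.86-fold (log2 -0.90, adjusted p = 0.00169). The difference of p300-deleted cells from control was 0.56 with the 18S level as a covariate and not called there (adjusted p = 0.0616), nor was it without p300-deleted replicate 2 (0.51, adjusted p = 0.0845). Over its 21 alternatives the adjusted p was 0.0120 to 0.0845.

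Among the genes up to 12 places away on either side of this cluster, 15 were measured. Their log2 fold changes in CBP-deleted against control cells were -0.32 to 0.34, with adjusted p-values of 0.116 to 0.955. Between the deletions limma called 1, Tcf19, which was 0.89 higher in CBP-deleted cells (adjusted p = 0.00706) and -0.62 in p300-deleted cells against controls (adjusted p = 0.0493). The next genes outward, Lst1 and Nfkbil1, were -0.51 (adjusted p = 0.111) and -0.12 (adjusted p = 0.640) between the deletions. This window was chosen after the 3 genes had been seen to move.

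**Figure D3:**
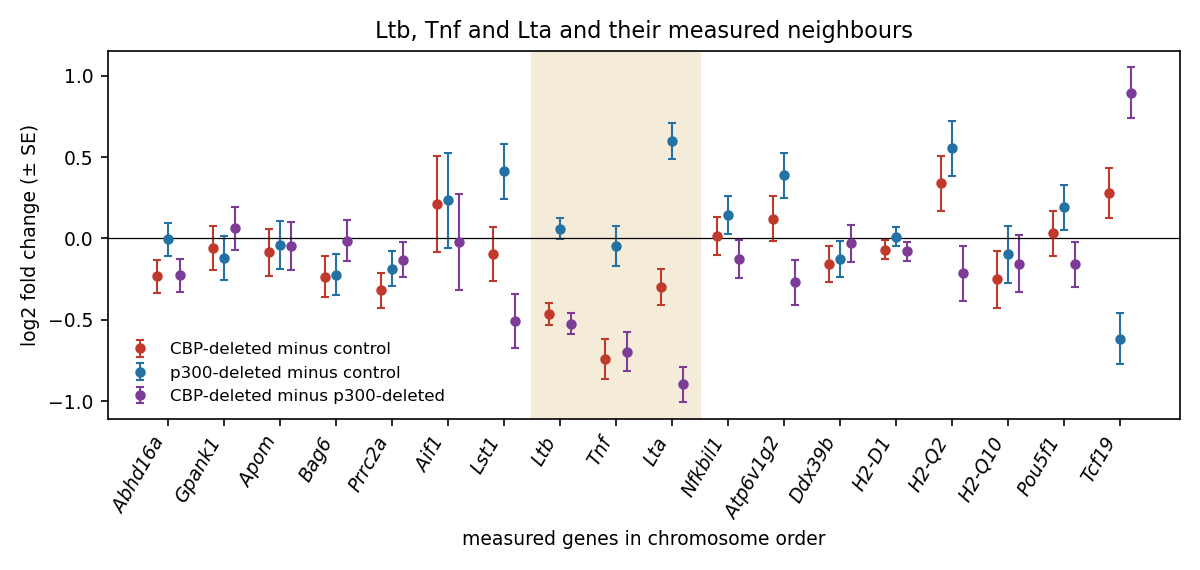
Log2 fold change with its standard error for Ltb, Tnf, Lta (shaded) and the 15 measured genes up to 12 places to either side, in chromosome order, for the 3 comparisons. In the shaded part the CBP-deleted minus p300-deleted points lie at -0.52, -0.70 and -0.90, and Tcf19 at the right edge is the one called neighbour, at 0.89.

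Promoter sequences from RefSeq (GRCm38.p6) were found for 28 of the 32 genes, as 38 windows from 250 bases before to 50 after a start. The kappaB consensus of NF-kappaB, searched on both strands with overlapping matches allowed, was in 42.1% of these 38 windows and in 8.46% of 32851 windows of all genes. By gene, 7 of 10 feedback targets held it, 2 of 7 output targets and 2 of 11 components, beside 9.55% of all genes. The cyclic AMP response element TGACGTCA was in 0 of the 38 windows and in 1.79% of all windows. AP-1 sites, searched as TGANTCA, were in 23.7% of the 38 windows and 7.81% of all windows. A match describes the letters and does not show binding, and genes with several starts have more windows in which to match.

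The stretches below lie before the start of the 3 neighbours and are shown because the genes adjoin and were all lower in CBP-deleted than in p300-deleted cells. Capitals mark matches of the kappaB consensus, and each run is written 5′ to 3′ on the strand of the gene. Ltb is at chr17:35194380-35194469 (plus strand), with the match 87 bases before the start. Tnf is at chr17:35202008-35202107 (minus strand) and Lta at chr17:35205352-35205451 (minus strand), both without a match in the window.
Ltb: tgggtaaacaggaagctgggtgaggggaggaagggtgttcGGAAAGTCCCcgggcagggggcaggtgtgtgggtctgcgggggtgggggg
Tnf: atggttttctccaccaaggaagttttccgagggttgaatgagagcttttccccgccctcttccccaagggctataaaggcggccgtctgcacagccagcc
Lta: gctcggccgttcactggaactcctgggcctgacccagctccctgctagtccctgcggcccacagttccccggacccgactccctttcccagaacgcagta

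The other output targets were less even. Icam1, the adhesion molecule that binds LFA-1, read 8.57, 8.41 and 8.74 in controls, 7.87, 7.87 and 8.10 in CBP-deleted and 8.54, 8.31 and 8.06 in p300-deleted arrays. CBP-deleted arrays were below the controls but overlapped p300-deleted replicate 3. Icam1 fell 1.55-fold in CBP-deleted cells (log2 -0.63, SE 0.13, limma adjusted p = 0.0227), a call lost in 5 of 21 alternatives (adjusted p up to 0.0920), among them without any 1 of the CBP-deleted arrays or control replicate 1.

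Irf1, a transcription factor of the interferon response, read 10.37, 10.21 and 10.28 in controls, 10.04, 9.97 and 9.60 in CBP-deleted and 10.41, 10.45 and 10.19 in p300-deleted arrays. CBP-deleted arrays were below all others. The difference from control was -0.42 (limma adjusted p = 0.064), and that from p300-deleted cells was -0.48 (adjusted p = 0.0344). The latter call was lost in 9 of 21 alternatives (adjusted p up to 0.140), among them the 18S covariate and the omission of CBP-deleted replicate 2 or 3 or p300-deleted replicate 1 or 2.

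Ccl4, a chemokine, read 7.07, 7.07 and 7.11 in controls, 5.91, 6.45 and 6.69 in CBP-deleted and 7.96, 7.50 and 6.48 in p300-deleted arrays. Its relative Ccl3 read 7.38, 7.09 and 6.89, then 6.21, 6.47 and 7.25, then 8.13, 7.45 and 7.03. Both were highest in p300-deleted replicate 1 and, within the CBP-deleted group, in replicate 3. Both also spread widely within each deleted group, and neither was called (limma adjusted p of 0.0973 and 0.103 between the deletions). The macrophage marker Lyz2 read 6.12, 5.46 and 7.42 in controls, 5.93, 6.68 and 8.27 in CBP-deleted and 8.56, 7.15 and 7.15 in p300-deleted arrays. It was highest in p300-deleted replicate 1 and CBP-deleted replicate 3. Among controls it was highest in replicate 3, where Ccl3 was lowest. This order was not particular to Lyz2. In CBP-deleted replicate 3 and p300-deleted replicate 1, the neutrophil marker S100a8 read 11.01 and 10.08, and the basophil marker Mcpt8 7.20 and 8.27. Each was the highest value of its deleted group. The macrophage marker Itgam read 3.22 and 2.93 there, neither the highest of its group. The part of any of these cell types in the chemokine readings was not tested. Csf2, the cytokine GM-CSF, read 4.97 to 6.49 over the 9 arrays with overlap between all groups.

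Among the Rel proteins 3 of 4 measured genes fell in CBP-deleted cells. Relb, the partner of p52 in the alternative pathway, read 8.71, 8.66 and 8.76 in controls, 8.15, 8.15 and 8.24 in CBP-deleted and 8.33, 8.21 and 8.42 in p300-deleted arrays. Both deleted groups lay wholly below the controls. Relb fell by 0.53 with CBP deleted (limma adjusted p = 0.00916) and by 0.39 with p300 deleted (adjusted p = 0.0313) on the log2 scale. The call in p300-deleted cells was lost in 9 of 21 alternatives (adjusted p up to 0.162), among them the 18S covariate, the fit of only these groups and 6 of the 9 fits with an array left out. That in CBP-deleted cells was lost in 2, without CBP-deleted replicate 1 or 2 (up to 0.0552).

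Rela, the p65 subunit of the classical pathway, read 10.10, 9.68 and 9.78 in controls, 9.50, 9.42 and 9.31 in CBP-deleted and 9.72, 9.64 and 9.77 in p300-deleted arrays. Nfkb2, the precursor of p52, read 8.71, 8.34 and 8.72, then 8.18, 8.19 and 8.13, then 8.40, 8.41 and 8.35. In both genes the CBP-deleted arrays were the lowest 3, and p300-deleted arrays overlapped the controls. Rela fell by 0.44 (adjusted p = 0.0393) and Nfkb2 by 0.42 (limma adjusted p = 0.0447) against control, close to the threshold. The call of Rela was lost in 12 of 21 alternatives (adjusted p up to 0.168) and that of Nfkb2 in 16 (up to 0.238); with an array left out, Rela was called in 2 of 9 fits and Nfkb2 in 1. Rel, the c-Rel subunit, read 6.30 to 6.60 over all arrays and was not called.

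The IkappaB proteins and their nuclear relatives are the pathway's own brakes and co-factors. Nfkbie, IkappaB epsilon, read 8.05, 8.06 and 7.62 in controls, 7.41, 7.17 and 7.30 in CBP-deleted and 7.65, 7.50 and 7.54 in p300-deleted arrays. Control replicate 3 was the low control and overlapped the p300-deleted arrays. Nfkbie fell 1.53-fold in CBP-deleted cells (log2 -0.61, SE 0.13, limma adjusted p = 0.022). It was not called in 5 of 21 alternatives (adjusted p up to 0.0924), among them without any 1 of the CBP-deleted arrays or control replicate 1.

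Bcl3, a nuclear co-activator that binds p50 and p52, read 7.79, 7.82 and 7.68 in controls, 7.31, 7.10 and 7.08 in CBP-deleted and 7.51, 7.60 and 7.69 in p300-deleted arrays. CBP-deleted arrays were below all others. Bcl3 fell by 0.60 against control (limma adjusted p = 0.0103) and was -0.43 against p300-deleted cells (adjusted p = 0.0284). The latter call was lost in 7 of 21 alternatives (adjusted p up to 0.133), with CBP-deleted replicate 2 or 3 or any p300-deleted array omitted among them, and the former in 2, without CBP-deleted replicate 2 or 3 (up to 0.0611).

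Nfkbia, IkappaB alpha, read 12.81, 12.70 and 12.89 in controls, 12.63, 12.60 and 12.51 in CBP-deleted and 12.90, 12.91 and 12.81 in p300-deleted arrays. CBP-deleted arrays were again the lowest. The difference was -0.22 from control (limma adjusted p = 0.0992) and -0.29 from p300-deleted cells (adjusted p = 0.031). The latter call was lost in 11 of 21 alternatives (adjusted p up to 0.140), among them quantile normalization, the 18S covariate, and the omission of any CBP-deleted array or of p300-deleted replicate 1 or 2. All 4 of its probe sets were lower in CBP-deleted than in p300-deleted cells, by -0.42 to -0.29. Against control the dimmer probe sets were -0.53, -0.30 and 0.45 in CBP-deleted cells, so they differed in sign. Their limma p-values adjusted over all probe sets were 0.0167, 0.0666 and 0.558, so 1 passed. Nfkbib, IkappaB beta, was -0.18 (CBP deleted) and -0.27 (p300 deleted) against control, and Nfkbiz, IkappaB zeta, was -0.09 and 0.29; neither was called.

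The 5 targets shown next were called in a comparison and hold kappaB matches before the start, again in capitals. Of the other called targets, Traf1 and Icam1 had no match, Bcl3 had a match only after the start, and Relb had no window. Where a gene has several windows, the one with most matches before the start is shown (of 3 for Nfkb2 and 2 for Irf1). Nfkb2 at chr19:46304658-46304736 (plus strand) has 3 matches, of which 2 overlap. Nfkbia at chr12:55492648-55492716 (minus strand) has 1 match, 29 bases before the start. Nfkbie at chr17:45555554-45555643 (plus strand) has 1, 106 bases before the start, and Irf1 at chr11:53769961-53770013 (plus strand) has 1, 13 bases before it. Tnip1 at chr11:54962947-54963038 (minus strand) has 3 overlapping matches.
Nfkb2: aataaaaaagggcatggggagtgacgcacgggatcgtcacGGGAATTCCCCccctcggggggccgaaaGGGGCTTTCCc
Nfkbia: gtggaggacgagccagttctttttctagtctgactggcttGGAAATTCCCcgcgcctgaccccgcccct
Nfkbie: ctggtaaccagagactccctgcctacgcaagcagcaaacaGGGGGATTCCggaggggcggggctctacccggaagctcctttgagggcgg
Tnip1: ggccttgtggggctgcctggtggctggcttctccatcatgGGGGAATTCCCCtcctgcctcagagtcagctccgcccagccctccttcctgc
Irf1: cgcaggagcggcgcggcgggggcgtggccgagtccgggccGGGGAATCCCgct

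Among receptors and adaptors 4 of 7 measured genes fell in CBP-deleted cells. Traf1, an adaptor of TNF receptors that is itself a target, read 8.78, 8.72 and 8.81 in controls, 8.15, 8.09 and 8.16 in CBP-deleted and 9.02, 8.89 and 8.89 in p300-deleted arrays. The 3 groups did not overlap, with CBP-deleted lowest. Traf1 fell 1.55-fold against control (log2 -0.64, SE 0.08, limma adjusted p = 0.0028), and the deletions differed by 1.74-fold (log2 -0.80, adjusted p = 0.00108). In p300-deleted cells it was 0.16 above control (adjusted p = 0.312).

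**Figure D4:**
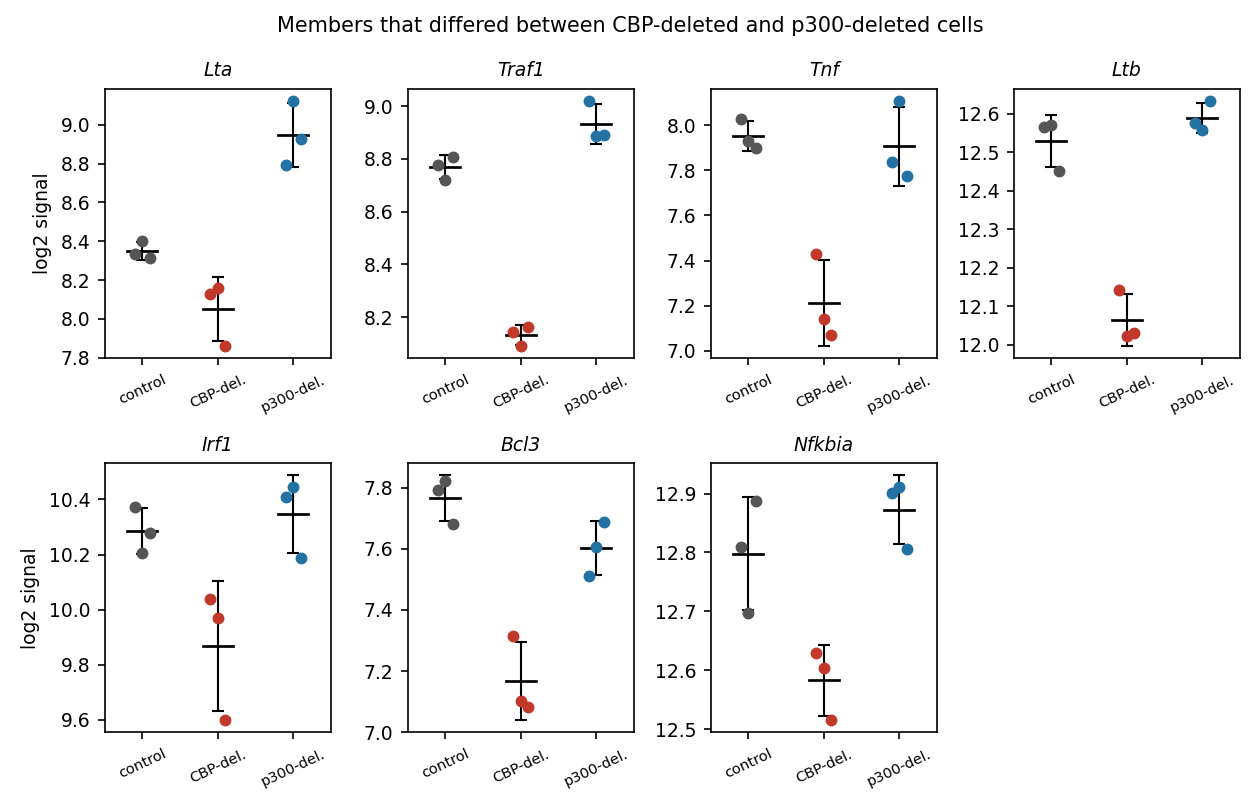
Log2 signal on each array (points) with group mean and SD (3 arrays) for the 7 genes called between CBP-deleted and p300-deleted cells; each panel has its own axis. In every panel the CBP-deleted points are below all p300-deleted points, and in Lta and Traf1 the p300-deleted points are also above all controls.

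Tnfrsf1b, TNF receptor 2, which promotes Treg expansion, read 9.54, 9.57 and 9.91 in controls, 8.92, 9.0 and 9.07 in CBP-deleted and 9.10, 9.03 and 9.33 in p300-deleted arrays. All 6 deleted arrays were below the controls. Tnfrsf1b fell by 0.68 in CBP-deleted (limma adjusted p = 0.0103) and by 0.52 in p300-deleted cells (adjusted p = 0.029). Its second, dimmer probe set was 0.05 and -0.14 in these comparisons, so the calls rest on 1 of 2 probe sets. They were lost in 4 of 21 alternatives with CBP deleted, 2 of them without CBP-deleted replicate 1 or 2, and in 8 with p300 deleted, 4 of them without CBP-deleted or p300-deleted replicate 1 or 2.

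Tnfrsf1a, TNF receptor 1, read 8.08, 8.0 and 7.91 in controls, 7.49, 7.36 and 7.33 in CBP-deleted and 7.87, 7.51 and 7.68 in p300-deleted arrays. Traf2, which links TNF receptors to the kinases, read 7.98, 8.38 and 7.92, then 7.58, 7.64 and 7.29, then 7.69, 7.58 and 7.61. In both genes all deleted arrays were below the controls. Tnfrsf1a fell by 0.61 (adjusted p = 0.0136) and Traf2 by 0.59 (limma adjusted p = 0.0303) in CBP-deleted cells. These calls were lost in 3 and 7 of 21 alternatives (adjusted p up to 0.0684 and 0.136), both when control replicate 1 or CBP-deleted replicate 2 or 3 was omitted, and that of Traf2 also without CBP-deleted replicate 1 or p300-deleted replicate 2. In p300-deleted cells they were -0.31 (adjusted p = 0.143) and -0.47 (adjusted p = 0.0771), which did not pass. Between the deletions they were -0.30 (95% interval -0.53 to -0.06, adjusted p = 0.163) and -0.13 (-0.42 to 0.17, adjusted p = 0.693), and neither was called. The interval of Tnfrsf1a, which is not adjusted, left out 0 (limma unadjusted p = 0.0194), with CBP-deleted arrays wholly below p300-deleted ones. For Traf2 the arrays of the deletions overlapped (unadjusted p = 0.364). The adaptor Tank and the survival genes Birc3, an inhibitor of apoptosis, and Cflar, which blocks caspase 8, were 0.05, -0.13 and 0.07 in CBP-deleted cells and not called. The dimmer probe sets of Cflar were -0.55 to -0.15 there (limma p adjusted over all probe sets 0.114 to 0.716). That of Birc3 was 0.10 (0.851), so in both genes the sign differed between probe sets.

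**Figure D5:**
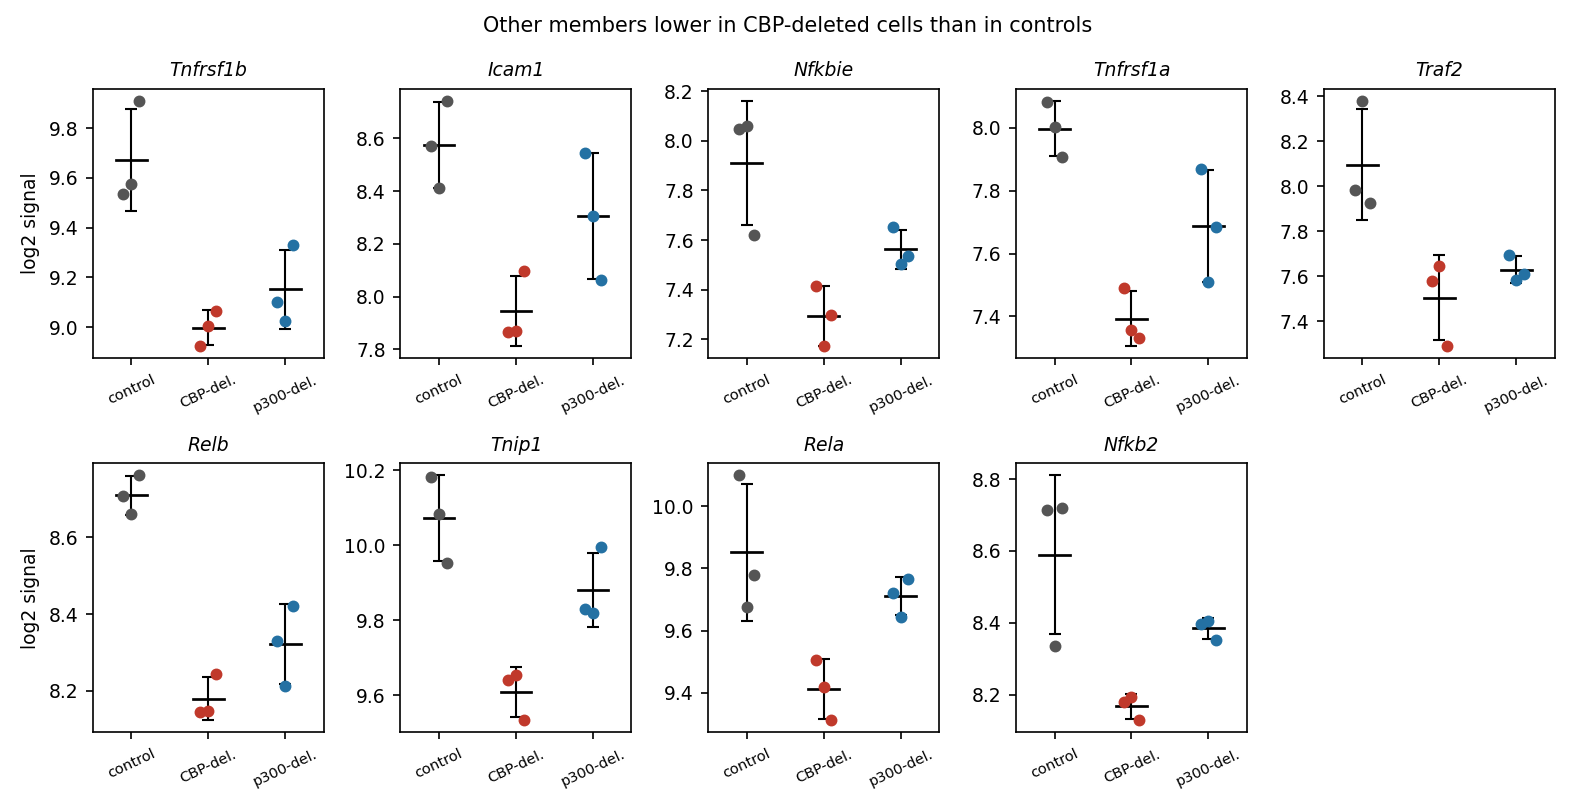
Log2 signal on each array (points) with group mean and SD (3 arrays) for the other 9 genes that fell in CBP-deleted cells; each panel has its own axis. The 3 CBP-deleted points are below the 3 controls in all 9 panels, and in Tnfrsf1b, Tnfrsf1a, Traf2 and Relb the p300-deleted points are below the controls too.

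The proteins around A20 end NF-kappaB signalling by editing ubiquitin chains. Tnip1, a partner of A20, read 10.18, 10.08 and 9.95 in controls, 9.64, 9.65 and 9.53 in CBP-deleted and 9.83, 9.82 and 9.996 in p300-deleted arrays. CBP-deleted arrays were below the other 6. Tnip1 fell by 0.46 against control (limma adjusted p = 0.016), a call lost in 4 of 21 alternatives (adjusted p up to 0.0783), without any 1 of the CBP-deleted arrays or control replicate 1. Tnfaip3, which encodes A20, read 6.79, 4.73 and 6.84 in controls, 7.17, 6.72 and 6.31 in CBP-deleted and 7.93, 7.70 and 6.39 in p300-deleted arrays. One control, replicate 2, was far below the rest, and the groups overlapped. Its differences of 0.61 and 1.22 from control were not called (adjusted p = 0.556 and 0.230). Tnip2 was 0.21 and 0.17 and not called.

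The kinases and the Bcl10 adaptor gave no call in any comparison in limma, with 1 of 5 at an unadjusted p under 0.05 in CBP-deleted against control cells and 0 of 5 in the other comparisons. Ikbkb, the main catalytic kinase, read 10.59, 10.15 and 10.33 in controls, 10.34, 10.12 and 10.04 in CBP-deleted and 10.41, 10.37 and 10.36 in p300-deleted arrays. The CBP-deleted arrays were below the p300-deleted ones, and both overlapped the controls. Map3k14, the kinase NIK of the alternative pathway, read 7.24, 7.03 and 6.79, then 6.90, 6.72 and 6.49, then 6.93, 6.94 and 6.99, with the same order and overlap. The log2 fold changes of the 5 genes were -0.32 to 0.10 with CBP deleted and -0.07 to 0.21 with p300 deleted. Their dimmer probe sets spread more widely, from -0.31 to 0.65 and from -0.09 to 0.93. The highest, of Ikbkb, was not called (limma p adjusted over all probe sets 0.253 and 0.122). A dimmer probe set of Bcl10 was 0.24 and 0.50 (0.459 and 0.126), opposite in sign to the brightest. Ikbkg, the regulatory subunit of the kinase complex, read 7.67, 7.73 and 7.31 in controls, 7.59, 7.74 and 7.69 in CBP-deleted and 7.43, 7.47 and 7.72 in p300-deleted arrays. The related kinase Ikbke read 10.20, 9.53 and 9.63, then 9.96, 9.66 and 9.49, then 9.89, 10.09 and 9.997. All groups overlapped in both genes. Bcl10 read 9.22, 9.51 and 9.23 in controls, 9.18, 9.15 and 9.16 in CBP-deleted and 9.15, 9.33 and 9.38 in p300-deleted arrays, so that CBP-deleted arrays were below the controls in this gene, by a difference of -0.15 that was not called (limma adjusted p = 0.417).

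Other genes of the pathway, outside the 38, were taken from lists of receptors, signalling genes and targets. The shares called in CBP-deleted cells were 7.89% of other targets, 16.7% of receptors and 3.45% of signalling genes, beside 4.93% of all genes, and in p300-deleted cells 10.5%, 5.56% and 3.45%, beside 4.06%. These shares rest on 1 to 4 genes each. Of 38 measured other targets, 3 fell in CBP-deleted cells (Mmp9, a matrix protease, by 1.45, Cd44, an adhesion receptor, by 0.73, and the chemokine Ccl5 by 0.58), and their median was 0.01. In p300-deleted cells Cd86, a ligand of CD28, rose by 0.74 and Fas, a death receptor, by 0.58, while Cd44 fell by 0.70 and Ccl5 by 0.57 (median 0.02). Of 18 other receptors, Tnfrsf14 rose by 0.71 and Tnfrsf4, the OX40 receptor, by 0.43 in CBP-deleted cells, Tnfrsf25 fell by 0.51, and Cd27 rose by 0.58 in p300-deleted cells. Of 29 other signalling genes, Skp1, part of the ubiquitin ligase that acts on IkappaB, rose by 0.63 with CBP deleted and by 0.38 with p300 deleted. The medians of the receptor list were 0.02 and -0.04, and that of the signalling list was 0.03 in CBP-deleted cells. Between the deletions Cd27 was -0.45, Mmp9 -1.15 and Commd1, an inhibitor of NF-kappaB, 0.49.

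Other features moved with these results, and their part was not tested. Among immediate early genes, transcribed soon after a cell is stimulated, 8 of 22 measured fell in CBP-deleted cells, beside 2.79% of all genes, and 12 were lower in CBP-deleted than in p300-deleted cells, beside 2.01%. In p300-deleted cells Jun rose by 0.99 and Btg2 by 1.34, 2 of the 22, beside 2.02% of all genes called higher. The same shares of all genes apply to the marker counts that follow. The log2 of their summed linear signal was 14.61 to 14.90 in CBP-deleted, 15.40 to 15.50 in p300-deleted and 15.10 to 15.27 in control arrays. B cell markers gave 8.67 to 9.27, 9.31 to 9.84 and 9.61 to 9.92 in that order, and 3 of 7 (Cd79a, Cd79b and Cd22) fell in CBP-deleted cells, while Pax5 read 3.12 to 3.66 on all arrays. Plasma cell markers gave 12.31 to 12.65, 13.29 to 13.53 and 12.28 to 12.59, and 4 of 5 rose in p300-deleted cells. Of these 5, 4 were lower in CBP-deleted than in p300-deleted cells. Neutrophil markers gave 8.98 to 12.003, 9.05 to 11.35 and 7.42 to 8.52, and 1 of 7 (Camp) was called, in p300-deleted cells. Mast cell and basophil markers gave 7.73 to 8.84, 8.80 to 9.65 and 7.81 to 7.93, and 4 of 6 rose in p300-deleted cells. Of these 6, 1 was lower in CBP-deleted than in p300-deleted cells. Macrophage and monocyte markers gave 7.55 to 9.31, 8.32 to 9.84 and 7.33 to 8.47, with Itgam at 2.81 to 3.28. In dendritic cell markers the sums were 9.11 to 9.30, 9.19 to 9.82 and 9.31 to 9.60, in CD8 T and NK cell markers 10.52 to 11.03, 10.97 to 11.16 and 11.06 to 11.15, and in erythroid markers 4.69 to 4.89, 4.76 to 5.26 and 5.22 to 6.24. Those of CD4 T and Treg cells were 14.07 to 14.15, 14.21 to 14.28 and 13.99 to 14.18. In such bulk samples fewer cells of a type and less RNA per cell cannot be told apart.

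The number of calls depended on single arrays. In CBP-deleted against control cells the 13 genes became 5, 2 and 4 without CBP-deleted replicates 1, 2 and 3. Without control replicate 1 they became 6. Over all genes the 611 calls became 123, 91, 85 and 130 in these fits, so calls fell for genes at large too. An unadjusted limma p under 0.05 was reached by 18, 17, 17 and 17 of the 32 there, beside 18 in the main fit. Traf1 and Ltb kept their calls without any single array. In p300-deleted against control cells the 3 genes became 0 without p300-deleted replicate 2 (limma, 4 at an unadjusted p under 0.05), 1 without p300-deleted replicate 1, and likewise 1 when either CBP-deleted replicate 1 or replicate 2 was omitted. Omitting control replicate 3 gave 5. Between the deletions the 7 genes became 4 without CBP-deleted replicate 2, p300-deleted replicate 1 or p300-deleted replicate 2, and Lta, Traf1, Tnf and Ltb kept their calls under all 21 alternatives.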

How the data were processed

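The deposited log2 values, 1 per probe set and array, were summarised by the authors with RMA, per the submitters' processing notes; version and settings are not given in the sources used here. RMA sets the arrays to a common distribution, so all differences are relative. Of 22690 probe sets, 64 were controls, 20380 carried 1 gene symbol, 691 several and 1555 none; 29 identifiers had no match in RefSeq (GRCm38.p6), which changed 0 symbols. Probe sets with 1 symbol gave 12393 genes. Comparisons came from a single linear model of the 9 arrays with a mean for each of the 3 groups (limma 3.58.1, R 4.3.3). It leaves 6 residual degrees of freedom, and variances were moderated with a trend on the mean. Tests were two-sided and called at an adjusted p of 0.05 over all genes. An exact permutation test of 3 against 3 arrays cannot give a p below 0.1. The fit was tested on simulated data. SD is over 3 arrays, SE is that of the fit.

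The genes, their classes and the other lists were chosen with earlier results of these data known, so lists get counts and medians and no test. Named were all 38 genes, with every array's values for those called in a comparison or in a role with no call. Up to 8 called genes of each other pathway list were named as well. Ccl3, Ccl4, Tnfaip3, Lyz2, S100a8, Mcpt8, Itgam and the neighbours of Tnf were added after their values were seen. Alternatives were samples in the fit, variance prior, scaling, dim genes, probe set rule, the 18S level, the replicate block and single arrays.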

Additional observations from a re-analysis of the deposited data

Results flagged for a closer look

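The effect of deletion differed between CBP-deleted and p300-deleted cells for 7 genes, by the direct limma contrast at the adjusted p threshold of 0.05. The CBP-deleted minus p300-deleted log2 difference was -0.90 for Lta, -0.80 for Traf1, -0.70 for Tnf, -0.52 for Ltb, -0.48 for Irf1, -0.43 for Bcl3 and -0.29 for Nfkbia. In each of the 7 all 3 CBP-deleted arrays were below all 3 p300-deleted arrays. For Lta and Traf1 the CBP-deleted arrays were also below, and the p300-deleted arrays above, all 3 controls. With 3 arrays a group, no array was examined as an outlier within its group.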

How the results depend on the processing

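Over the 21 alternatives, Traf1 and Ltb kept their calls against control in CBP-deleted cells, and Traf1, Tnf, Lta and Ltb kept theirs between the deletions. Leaving out each array in turn gave 2 to 14 called genes for CBP-deleted against control cells, 0 to 5 for p300-deleted against control and 4 to 7 between the deletions. In the first of these comparisons the calls over all genes were 85 to 1131 in the same fits. The calls of p300-deleted cells went from 3 to 1 with only the arrays of the compared groups and to 1 with the 18S level as a covariate. Without both arrays highest in 18S (control replicate 3 and p300-deleted replicate 2), an alternative chosen after seeing the data, they were 0 (limma, 9 at an unadjusted p under 0.05), and those between the deletions were 4. The target minus component difference in CBP-deleted against control cells was -0.13 by means and -0.30 to -0.19 without single arrays. Between the deletions it was -0.32 by means, -0.39 for output targets against all others, -0.15 without both arrays highest in 18S, and -0.33 to -0.12 without single arrays. Tnfrsf1b reversed to 0.049 in CBP-deleted cells with its second brightest probe set; the cause was not tested. Pairing of the samples by replicate number was not seen, but deviations within groups of 3 arrays cannot exclude it. The 9 pairs of equal number correlated at -0.23 to 0.27, and pairs of unequal number at -0.19 to 0.26. In 4 of 18 checks, 2 for each of the 9 samples (1 against each other group), a sample matched best with its own number. With the replicate block the calls were 12, 3 and 5, in place of 13, 3 and 7. With 3 arrays a group, small differences cannot be told from the spread. Over all genes the calls were 611, 503 and 645 in the same order, and 261, 165 and 1386 with only the arrays of the compared groups.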
